A study of Mus musculus with 3 samples.

Results

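The ovarian somatic fate genes described here are Foxl2, Wnt4, Rspo1, Bmp2, Irx3, Irx5 and Esr2, which are known for their roles in the supporting cells of the ovary. Each was found on the array by the RefSeq accession of its probes, which gave 1 probe per gene, or 7 of 41174 probes and 7 of the 16354 genes that could be named. They were measured in gonads of male mouse embryos that carried no working copy of Cyp26b1 (genotype Cyp26b1-/-, MCH line), dissected at embryonic day 12.5 (E12.5), 13.5 (E13.5) or 14.5 (E14.5). The missing enzyme, a cytochrome P450, degrades retinoic acid, and all groups share the knockout genotype. There were 2 arrays per stage, which the series calls biological duplicates, so 6 arrays in all. Arrays of a control genotype or of ovaries were not analysed here, so the comparisons ask how these genes moved between stages within the knockout male gonad.

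In the fetal ovary, supporting cells become pregranulosa cells under the action of secreted WNT4 and R-spondin 1, which act together to stabilise beta-catenin, and of the forkhead transcription factor FOXL2. BMP2 is a secreted growth factor made by ovarian somatic cells and is known to promote Foxl2 expression. IRX3 and IRX5 are homeodomain transcription factors of pregranulosa cells, and ESR2 is estrogen receptor beta, a granulosa cell receptor of the later ovary. In the fetal testis SOX9 and FGF9 oppose the WNT4 pathway, and several of the 7 genes are also transcribed in the bipotential gonad or in other gonadal cells of both sexes.

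The regions upstream of the start of transcription were taken from RefSeq for the assembly GRCm38.p6, and 5 of the 7 genes had one in the table used (Foxl2, Wnt4, Rspo1, Irx3 and Esr2). The 250 bases before the start are printed for the ligand genes Wnt4 and Rspo1, whose products act together. They are also printed for Foxl2, the transcription factor among the 7 most closely tied to the ovarian fate. Of the ligand genes only Wnt4 had a change that passed here, and the difference between their changes was not tested. Capitals mark every match to the GC box GGGCGG on either strand, which is CCGCCC on the strand printed where the match is on the other one.
Wnt4: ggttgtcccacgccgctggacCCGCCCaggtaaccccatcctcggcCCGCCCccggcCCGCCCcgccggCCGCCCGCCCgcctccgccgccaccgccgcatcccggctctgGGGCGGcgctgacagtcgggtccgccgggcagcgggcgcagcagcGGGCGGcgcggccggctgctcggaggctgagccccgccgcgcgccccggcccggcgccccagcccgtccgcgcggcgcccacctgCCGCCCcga
Rspo1: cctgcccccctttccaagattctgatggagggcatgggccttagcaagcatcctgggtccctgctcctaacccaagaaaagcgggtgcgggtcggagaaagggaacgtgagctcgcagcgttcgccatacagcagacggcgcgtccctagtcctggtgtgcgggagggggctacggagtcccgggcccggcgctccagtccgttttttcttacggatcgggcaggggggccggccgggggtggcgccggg
Foxl2: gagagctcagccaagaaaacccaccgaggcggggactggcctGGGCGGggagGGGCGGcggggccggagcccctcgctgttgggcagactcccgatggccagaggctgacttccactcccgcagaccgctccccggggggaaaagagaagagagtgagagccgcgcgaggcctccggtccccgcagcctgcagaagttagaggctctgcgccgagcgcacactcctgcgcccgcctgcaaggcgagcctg
These windows lie at chr4:137277385-137277634, chr4:124986180-124986429 and chr9:98955357-98955606, all on the plus strand. The GC box was found 8 times before Wnt4, where 2 neighbouring matches share letters, 2 times before Foxl2 and 0 times before Rspo1, Irx3 and Esr2. It occurs in 32.7% of all 32851 windows of this length. The Wnt4 window was 85.2% G and C, against 70.8% for Foxl2, 66.8% for Rspo1, 56.4% for Esr2, 56.0% for Irx3 and a median of 52.4% over all windows. The nuclear receptor half-site AGGTCA, the TCF/LEF letters CTTTGAT, the forkhead letters TGTTTAC and, for GATA factors, the letters AGATAA, also searched on both strands, were absent from all 5 windows and present in 14.0%, 3.21%, 3.17% and 9.99% of all windows. The GC box was chosen after the sequences were seen, and these matches are a description of the letters alone.

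Signals are given as the log2 of the spot signal over each array's 75th percentile, so that 0 is a spot at the 75th percentile and each unit is a doubling. Brightness depends on the probe, so levels are compared between stages of 1 gene and not between genes. The scanner software called 65.3% to 70.1% of the probes of an array well above background, and 0 spots saturated. Duplicate arrays had Pearson r of 0.993 to 0.996 across genes, which are not independent replicates, and the median absolute log2 difference between duplicates was 0.163, 0.127 and 0.153 at the 3 stages. The E12.5 arrays came from 1 slide and the 4 others from a second slide, so stage and slide cannot be told apart where E12.5 is compared, and only E13.5 and E14.5 share a slide. The labelled male gonad showed 4 of 4 Y-linked marker genes and 8 of 8 Sertoli cell markers well above background on both arrays of every stage. The arrays measure whole gonads, so fewer cells of a type and less RNA per cell cannot be told apart.

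Of the 7 genes, Wnt4, Rspo1, Bmp2 and Esr2 were well above background on all 6 arrays. Foxl2 was so on 4 arrays, Irx5 on 2 and Irx3 on 1. Genes were tested where both arrays of at least 1 stage were well above background, which kept 6 of the 7 and left out Irx3. Each change is a log2 difference between the means of 2 stages of 2 arrays each, with its SE, from a limma fit across 13270 genes with Benjamini-Hochberg adjustment over all of them and a threshold of 0.05.

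**Figure D1:**
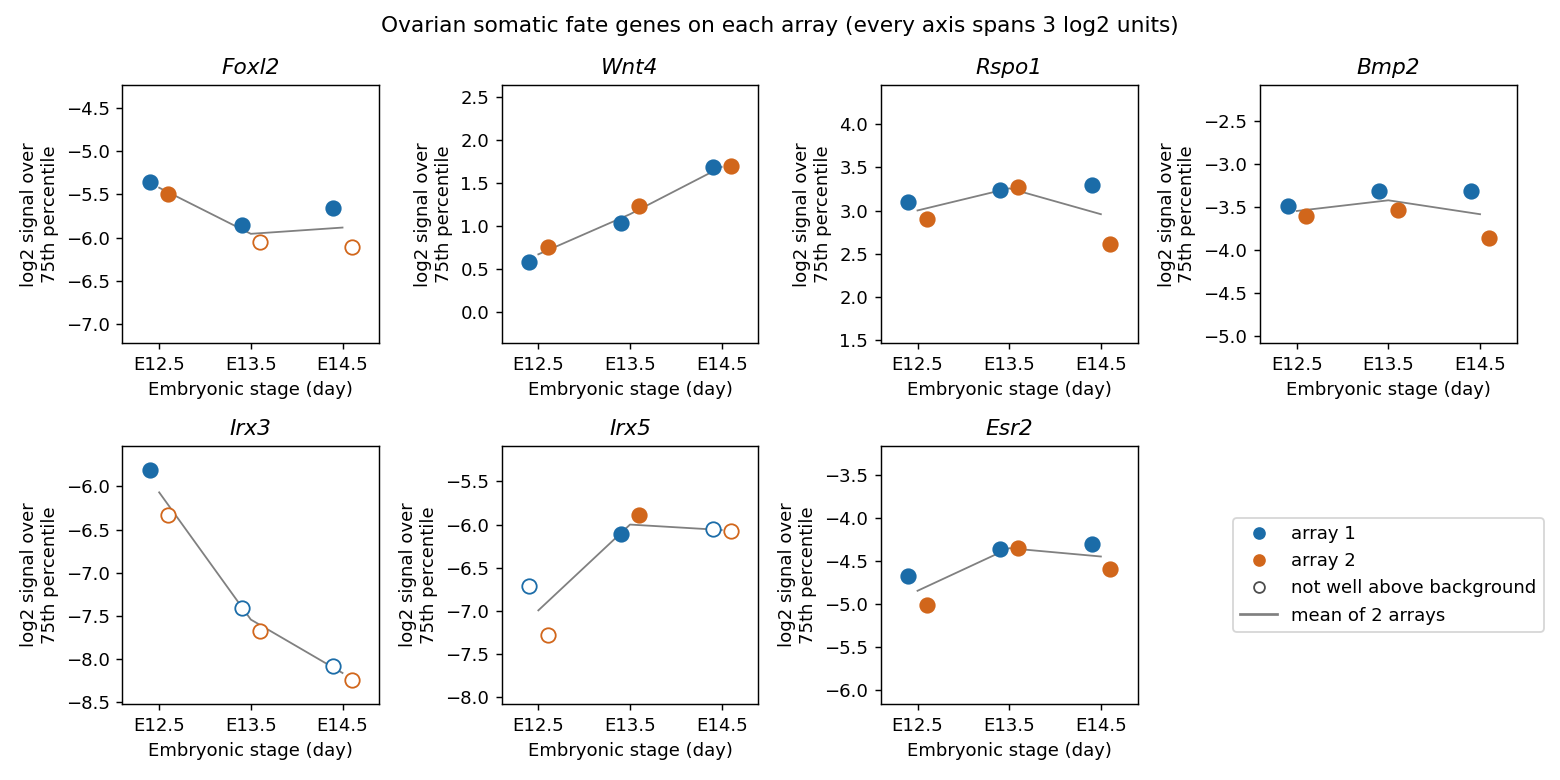
Log2 signal over the 75th percentile (y axis, 3 log2 units in every panel) of the 7 ovarian somatic fate genes by embryonic stage (x axis). Blue and orange points are the first and second array of a stage, open points are not well above background and grey lines join the means of 2 arrays; Wnt4 goes from 0.58 and 0.76 at E12.5 to 1.68 and 1.69 at E14.5, while most Irx3 and Irx5 points are open.

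Between E12.5 and E13.5, 2 of the 6 tested genes rose (Wnt4 and Irx5), 0 fell and 4 did not pass. Of all tested genes 31.7% passed in this comparison, 18.4% upward and 13.3% downward, so 58.0% of the calls were upward, or 47.3% with median scaling. Both arrays of E13.5 lay above both of E12.5 for Wnt4, Rspo1, Irx5 and Esr2 (40.2% of all tested genes) and below them for Foxl2 (31.6%). The median change of the 6 genes was 0.36, against 0.05 over all genes. It was 0.28 with the E12.5 signal of Irx5 set to the dimmest that still counted as above background. Between E13.5 and E14.5, 0 of the 6 passed, where 0.0528% of all genes did (7 of 13270, while 2439 had an unadjusted p under 0.05), or 0.0452% upward and 0.00754% downward. Both E14.5 arrays lay above both E13.5 arrays for Wnt4 alone of the 6 (26.4% of all tested genes), and for 0 of them below (29.1%). The median change of the 6 was -0.08, against -0.02 over all genes. Between E12.5 and E14.5, 2 passed upward (Wnt4 and Irx5), 0 downward and 4 did not pass, and 46.3% of all genes passed, 25.5% upward and 20.8% downward, so 55.2% of the calls were upward, or 39.5% with median scaling, which moved the median of all genes to -0.13. Both E14.5 arrays lay above both E12.5 arrays for Wnt4, Irx5 and Esr2 (39.8% of all tested genes) and below them for Foxl2 (35.6%). The 6 genes had a median of 0.18, against 0.03 over all genes, and of -0.04 without Irx5, which was dim at both of these stages. In a fit on every probe, named or not, the same 2, 0 and 2 genes passed in the 3 comparisons, where 27.4%, 0.00352% and 40.2% of 28391 probes did. Irx5 entered the test only through its E13.5 arrays and Foxl2 only through its E12.5 arrays, in each case the stage where its mean was highest, so counts and medians over the 6 describe the genes that could be tested and not all 7.

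**Figure D2:**
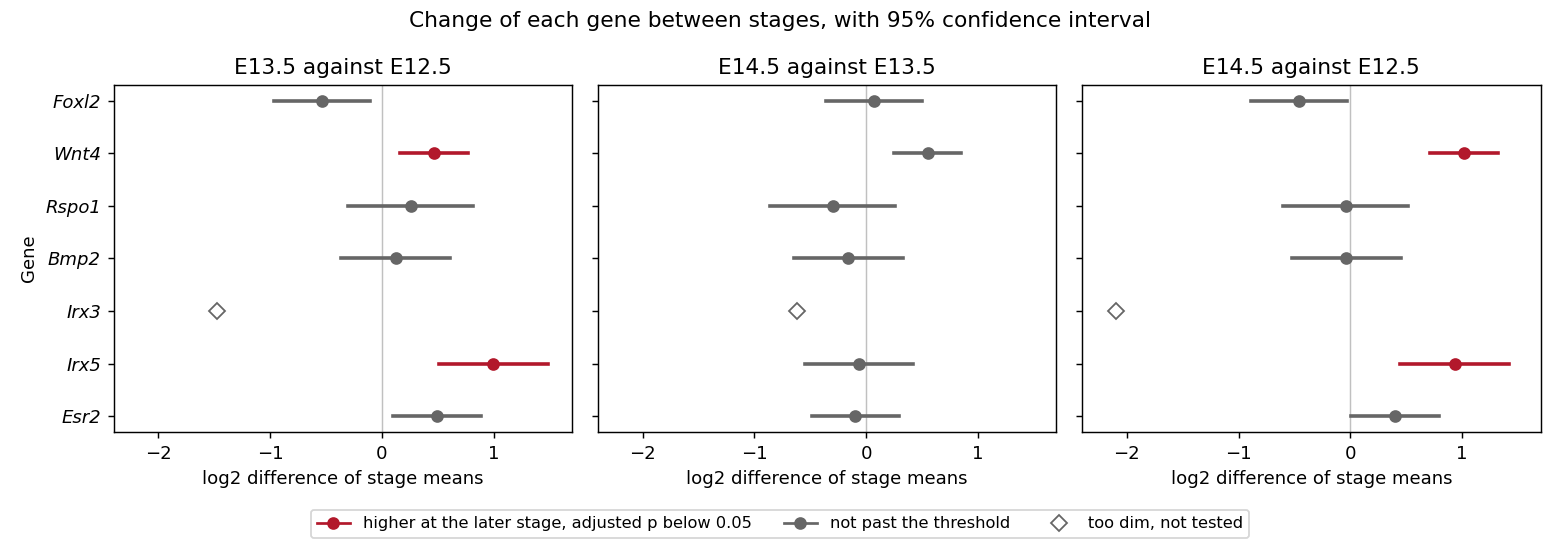
Log2 difference of stage means (x axis) for each ovarian somatic fate gene (y axis) in the 3 comparisons, with 95% confidence intervals from limma as bars. Red marks a gene higher at the later stage past the threshold, grey one that did not pass and an open diamond the untested Irx3. The intervals are not adjusted for the number of genes, while the colours follow the adjusted p. The interval of Wnt4 lies above 0 in all 3 panels. In the panels that compare a later stage with E12.5, those of Irx5 and Esr2 also lie above 0 and that of Foxl2 below 0.

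Wnt4, the WNT ligand of the ovarian pathway, rose from E12.5 to E14.5, and its mean was higher at each stage than at the one before. Its log2 signal over the 75th percentile was 0.58 and 0.76 on the E12.5 arrays, 1.04 and 1.24 on the E13.5 arrays, and 1.68 and 1.69 on the E14.5 arrays. The arrays of the 3 stages did not overlap, every E13.5 array was above both E12.5 arrays, and both E14.5 arrays were above all others. From E12.5 to E14.5 the signal rose 2.02-fold (1.01 ± 0.12, 95% interval 0.71 to 1.32, adjusted p = 0.00228). That rise passed under all 17 alternative settings tried, with changes from 0.85 to 1.10. From E12.5 to E13.5 it rose 1.38-fold (0.47 ± 0.12, adjusted p = 0.0354). This first step no longer passed when any 1 of the 6 arrays was left out (adjusted p = 0.0551 without either E14.5 array, 0.0719 and 0.187 when the first or second E13.5 array was dropped, and 0.128 and 0.0571 for the same at E12.5), nor with median scaling (0.0825) or with no background filter (0.0662). From E13.5 to E14.5, within 1 slide, the difference was 0.55 ± 0.12 (95% interval 0.25 to 0.85) and did not pass (adjusted p = 0.117), although it passed with a normexp background correction (0.0486) and with a variance prior that follows the signal (0.0385). In the authors' deposited table, Wnt4 had ratios of 0.981, 1.45 and 1.96 at the 3 stages against a reference that is not stated.

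Of the 12330 other genes well above background on all 6 arrays, Crebl2, Col8a2 and Il27ra had the profile nearest to that of Wnt4. After each gene was centred on its own mean, the root mean square log2 difference from Wnt4 over the 6 arrays was 0.0329, 0.0338 and 0.0589, and the median over all these genes was 0.455. The change of these 3 from E12.5 to E14.5 was 0.98, 1.01 and 0.98. The 6 arrays share 3 stages and 2 slides, so this is a likeness of profiles alone.

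Rspo1, whose secreted product R-spondin 1 strengthens WNT signalling at the receptor, had stage means within 0.30 log2 units of each other, and no comparison passed. It read 3.10 and 2.90 on the E12.5 arrays, 3.24 and 3.28 on the E13.5 arrays, and 3.30 and 2.61 on the E14.5 arrays. The first E14.5 array was the highest of the 6 and the second the lowest, so E14.5 overlapped both earlier stages. The change was 0.26 ± 0.23 from E12.5 to E13.5 (adjusted p = 0.421), -0.30 ± 0.23 from E13.5 to E14.5 (0.524) and -0.04 ± 0.23 over the whole interval (0.888). The 95% interval of the last ran from -0.60 to 0.52. Rspo1 differed by 0.69 between the E14.5 duplicates, and 4.48% of tested genes differed more. Without the second E14.5 array the change from E12.5 to E14.5 was 0.30 (adjusted p = 0.186) and that from E13.5 was 0.04. The nearest profile was that of Nkiras2, at a root mean square difference of 0.0597.

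The 17 tested genes of the R-spondin and beta-catenin pathway, from a list of 22, counted 4 higher at E14.5 than at E12.5, 3 lower and 10 without a call (median 0.00, against 0.03 over all genes). Over all genes 25.5% were higher and 20.8% lower, so these counts lie near the background. Rspo2, a second R-spondin gene, was well above background on no E12.5 array and on all 4 later ones. Its log2 signals were -8.09 and -7.99 on the E12.5 arrays, -6.28 and -5.90 on the E13.5 arrays, and -4.98 and -4.03 on the E14.5 arrays, without overlap between stages. At E14.5 it was at least 3.50-fold higher than at E12.5 (adjusted p = 0.000929), where the bound takes the dimmest E12.5 signal that still counted as above background in place of its own. Like Lgr6, it entered the test only through the later stages, where it was brighter. The R-spondin receptor genes parted. Lgr6 was at least 3.43-fold higher at E14.5 (adjusted p = 0.00401), and Lgr5, also a marker of fetal pregranulosa cells, fell 2.59-fold (-1.37 ± 0.12, adjusted p = 0.000852). Of the nuclear partners of beta-catenin, Tcf7 fell by 0.76 ± 0.12 (adjusted p = 0.00442), with -0.89 on its other probe, and Lef1 was at 0.06 ± 0.20 (0.837). Axin2, a common readout of beta-catenin activity, was at -0.23 ± 0.22 (adjusted p = 0.434). From E12.5 to E13.5 Axin2 was at -0.63 ± 0.22 and did not pass (limma adjusted p = 0.0741). That first difference passed with normexp (0.0257), quantile (0.046) and median scaling (0.029), and with a variance prior that follows the signal (0.0351). From E13.5 to E14.5 Axin2 was at 0.41 ± 0.22 (0.378). Lgr4 and Znrf3, which encode another R-spondin receptor and a ubiquitin ligase that removes WNT receptors, were matched to no probe. Between E12.5 and E13.5, 1 of the 17 rose, 2 fell and 14 did not pass, where 18.4% of all genes rose and 13.3% fell. Between E13.5 and E14.5 0 passed in limma.

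Bmp2 was read by 10 spots on each array, which allows the spread between spots of 1 array to be set beside the difference between arrays. The mean log2 signal was -3.48 and -3.61 on the E12.5 arrays, -3.31 and -3.53 on the E13.5 arrays, and -3.31 and -3.86 on the E14.5 arrays. The second array was lower than the first at every stage, and the arrays of all 3 stages overlapped. The change was 0.12 ± 0.20 from E12.5 to E13.5 (adjusted p = 0.661), -0.16 ± 0.20 from E13.5 to E14.5 (0.700) and -0.04 ± 0.20 from E12.5 to E14.5 (0.889, 95% interval -0.52 to 0.45). At E14.5 the spots of the first array ran from -3.41 to -3.20 and those of the second from -3.92 to -3.75, without overlap, while the SD between spots of an array was 0.059 to 0.106. The difference of 0.55 between these duplicates was exceeded by 7.53% of tested genes. Without the second E14.5 array the change from E12.5 to E14.5 was 0.24 (adjusted p = 0.305).

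**Figure D3:**
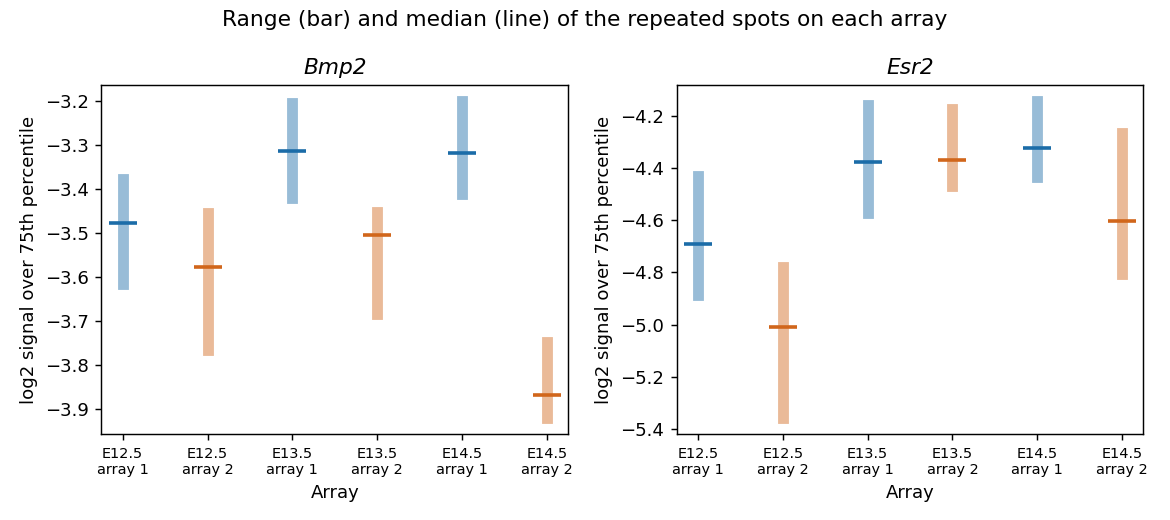
Log2 signal over the 75th percentile (y axis) of the 10 repeated spots of Bmp2 and of Esr2 on each of the 6 arrays (x axis), where a bar spans the lowest to the highest spot and the line is the median. Bmp2 spots on the E14.5 arrays do not overlap (-3.41 to -3.20 and -3.92 to -3.75), and the spots of Esr2 reach lowest on the second E12.5 array (-5.36 to -4.78).

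Of 24 tested BMP pathway genes, from a list of 27, 3 were higher and 5 lower at E14.5 than at E12.5, and 16 did not pass (median -0.17). Over all genes 25.5% were higher and 20.8% lower (median 0.03), so the share of falls in this list lies at the background. Nog, which encodes the secreted BMP inhibitor noggin, rose 2.93-fold (1.55 ± 0.31, adjusted p = 0.0105). Id1, a transcriptional target of BMP signals, was 0.61 ± 0.17 higher on its brightest probe and 0.72 on its other one (adjusted p = 0.0276). The Id1 call did not hold when an E12.5 array (0.0736 for the first, 0.105 for the second) or the first E14.5 array (0.0947) was dropped, with median scaling (0.0698) or with no background filter (0.0554). The type I receptor gene Acvr1 fell by 1.13 ± 0.11 (adjusted p = 0.00112) and the homeobox target gene Msx1 fell by 0.78 ± 0.14 (0.00736), with -1.63 on the other Msx1 probe. Between E12.5 and E13.5, 2 of the 24 rose, 4 fell and 18 did not pass, where 18.4% of all genes rose and 13.3% fell. Between E13.5 and E14.5 0 passed.

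Foxl2, the forkhead factor that maintains granulosa cell identity, stayed near the background of these arrays. At E12.5 both arrays were well above background, with log2 signals of -5.35 and -5.49. The E13.5 arrays read -5.86 and -6.05 and the E14.5 arrays -5.66 and -6.11, and only the first array of each of these stages was well above background. Both E12.5 arrays were above all 4 later arrays, and the arrays of E13.5 and E14.5 overlapped. Against E12.5 the change in Foxl2 was -0.53 ± 0.18 at E13.5 (95% interval -0.96 to -0.11, adjusted p = 0.0632) and -0.46 ± 0.18 at E14.5 (-0.89 to -0.03, adjusted p = 0.0741), and neither passed. From E13.5 to E14.5 it was 0.07 ± 0.18 (adjusted p = 0.855), with a negative sign under quantile (-0.04) and median scaling (-0.01). The 2 differences from E12.5 turned positive with normexp background correction (0.13 and 0.24, adjusted p = 0.428 and 0.127). They passed downward in other settings: the E13.5 difference without either E14.5 array (adjusted p = 0.0361), and the E14.5 difference with the first E14.5 array dropped (-0.69, 0.0274) and with median scaling (-0.63, 0.0358). With the second E14.5 array dropped the E14.5 difference was -0.24 (adjusted p = 0.293). In the authors' deposited table Foxl2 had ratios of 1.14, 0.843 and 0.819 at the 3 stages.

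Of 17 tested other somatic genes of the fetal ovary, from a list of 19, 1 was higher and 8 were lower at E14.5 than at E12.5, and 8 did not pass, where 25.5% of all genes were higher and 20.8% lower. Their median was -0.34, against 0.03 over all genes. With median scaling 10 of the 17 passed, 9 of them downward, and 39.5% of the calls over all genes were upward. Between E12.5 and E13.5 the counts were also 1, 8 and 8, where 18.4% of all genes rose and 13.3% fell. Sprr2d, an epithelial cornified envelope gene with close relatives whose transcripts its probe might also bind, was at least 6.34-fold lower at E14.5 (adjusted p = 0.0018). Kctd14 fell by 3.95 ± 0.51 (adjusted p = 0.00269), although its E12.5 arrays differed by more than 1 log2 unit (0.50 and 2.08). Fshr, the receptor gene for follicle-stimulating hormone, which Sertoli cells also express, was at least 2.24-fold higher (adjusted p = 0.00838). Sprr2d entered the test only through its E12.5 arrays and Fshr, the single rise, only through its E14.5 arrays, in both cases the stage where the gene was brightest. Fst, which encodes the activin inhibitor follistatin, passed downward from E12.5 to E13.5 (-0.53 ± 0.13, limma adjusted p = 0.0311). That call was lost with no background filter (0.0613) and with a trended and robust variance prior (0.122). Between E12.5 and E14.5 Fst differed by -0.34 ± 0.13 without passing (adjusted p = 0.0816), though it passed with quantile (0.0315) and median scaling (0.0317). Nr0b1, which encodes the orphan receptor DAX1, was at -0.41 ± 0.13 (adjusted p = 0.0426) and no longer passed without any 1 of the 6 arrays (0.0547 to 0.176) or with no background filter (0.0738).

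The counterpart genes of the testis were read in the same fit. Of 17 tested, from a list of 19, 2 were higher and 7 lower at E14.5 than at E12.5, and 8 did not pass (median -0.22). Over all genes 25.5% were higher and 20.8% lower, with a median of 0.03. Sox9, the testis-determining transcription factor downstream of Sry, fell by 1.50 ± 0.20 (adjusted p = 0.0031), with -0.70 and -1.24 on its other probes. Fgf9, which encodes a growth factor that represses Wnt4, fell by 2.15 ± 0.15 (adjusted p = 0.000623), and Cbln4, a Sertoli cell gene, fell by 2.15 ± 0.18 (0.000804). Amh, the anti-Müllerian hormone gene of Sertoli cells, was at 0.03 ± 0.12 (adjusted p = 0.844), or -0.13 with median scaling. From E12.5 to E13.5 Amh passed upward (0.44 ± 0.12, limma adjusted p = 0.0394). That call was lost with median scaling (0.127) and with no background filter (0.0718). From E13.5 to E14.5 Amh was at -0.41 ± 0.12 without passing (0.185). Dmrt1 rose by 0.83 ± 0.17 (adjusted p = 0.0115) and Nr5a1, a factor of steroidogenic and supporting cells, by 0.60 ± 0.11 (0.00675). The Cyp26b1 probe itself read -0.80 ± 0.18 (adjusted p = 0.0145), which did not pass when the first E12.5 (0.0677) or the second E14.5 array (0.0529) was dropped. On the 6 arrays this probe was bright, with log2 signals from 3.78 to 4.92. Whether it lies in the deleted sequence was not determined, so it does not test the genotype. The summed signal of the 8 Sertoli markers was 7453 to 8143% of the 75th percentile at E12.5 and 6408 to 7078% at E14.5, and its part in the changes of Wnt4 and Foxl2 was not tested.

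Irx3 and Irx5, which lie next to each other in the RefSeq gene order with Irx6 after Irx5, were both dim, and their highest signals fell at different stages. Irx3 read -5.81 and -6.33 on the E12.5 arrays, -7.41 and -7.68 on the E13.5 arrays, and -8.09 and -8.24 on the E14.5 arrays, with only the first E12.5 array well above background. Every E12.5 array was above every later one. For a bound, each later stage was set to the dimmest signal that still counted as above background. Irx3 was then 1.52-fold lower at E13.5 and 1.22-fold lower at E14.5 than at E12.5. These folds are not strict lower limits. On the first E14.5 array Irx5 was not called at -6.05, which is above the E12.5 mean of Irx3 (-6.07). They also rest on an E12.5 mean of which 1 of 2 arrays was above background. In a fit with no background filter over 16354 genes its change was -1.48 ± 0.21 at E13.5 (limma adjusted p = 0.0188) and -2.10 ± 0.21 at E14.5 (0.00544), with sizes that are taken from signals within the background.

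Irx5 read -6.72 and -7.28 on the E12.5 arrays, -6.11 and -5.89 on the E13.5 arrays, and -6.05 and -6.08 on the E14.5 arrays, and only the 2 E13.5 arrays were well above background. The E12.5 arrays were below all 4 later ones. At E13.5 Irx5 was at least 1.24-fold higher than at E12.5 (fitted change 0.996 ± 0.20, adjusted p = 0.0161), a call lost without the second E13.5 array (0.0848) and with a trended and robust prior (0.0586). The E14.5 signal was 0.93 ± 0.20 above that of E12.5 (adjusted p = 0.0126, or 0.0512 with the second E14.5 array dropped and 0.0593 with that prior), but neither stage had an array well above background, so no fold is given and no rise is read. From E13.5 to E14.5 the change was -0.06 ± 0.20 (adjusted p = 0.892). The 1.24-fold bound at E13.5 is not a strict lower limit. Irx5 was not called on the E14.5 arrays at -6.05 and -6.08, although it was called on the dimmer E13.5 array at -6.11. It also entered the test only through its E13.5 arrays.

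Of the other Iroquois genes, Irx2 rose 2.69-fold from E12.5 to E14.5 (1.43 ± 0.14, adjusted p = 0.00123), from -4.72 and -4.46 to -3.25 and -3.07. Another Irx2 probe changed by 1.44, and a dim one, above background on no array, by -0.00. Irx6 was 0.54 ± 0.13 lower (adjusted p = 0.02), lost without the second E12.5 (0.0845) or the first E14.5 array (0.0849) or under the trended and robust prior (0.0745), and turned to 0.10 with normexp. Irx4 read -0.06 ± 0.13 without passing (adjusted p = 0.728). Irx1 was well above background on 1 array, the second of E14.5, and was not tested.

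Esr2, the gene of estrogen receptor beta, was also read by 10 spots per array. Its mean log2 signal was -4.68 and -5.02 on the E12.5 arrays, -4.36 and -4.35 on the E13.5 arrays, and -4.31 and -4.59 on the E14.5 arrays. Both E12.5 arrays were below all 4 later ones, and the later stages overlapped. Against E12.5 the change in Esr2 was 0.49 ± 0.16 at E13.5 (95% interval 0.10 to 0.89, adjusted p = 0.0612) and 0.40 ± 0.16 at E14.5 (0.01 to 0.79, adjusted p = 0.087), and neither passed. Both passed with normexp background correction (0.45 and 0.46, adjusted p = 0.0187 and 0.0126), and the first among genes well above background on all 6 arrays (0.0444). With the second E12.5 array dropped they were 0.32 (adjusted p = 0.208) and 0.23 (0.319), and the E14.5 difference was 0.26 with the first E14.5 array dropped (0.312) and 0.23 with median scaling (0.306). Spots of 1 array spread with an SD of 0.095 to 0.160, which covers the spots alone, and the E12.5 duplicates differed by 0.34. Tbx2 had the nearest profile (root mean square difference 0.0478), and for Bmp2 the nearest was that of Ada (0.0488).

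Esr1, which encodes estrogen receptor alpha, rose where Esr2 did not pass. It read -4.32 and -4.17 at E12.5 and -2.09 and -2.24 at E14.5, a 4.22-fold rise (2.08 ± 0.12, adjusted p = 0.000479), and its other probe, dim on all 6 arrays, changed by 1.92. The difference between the changes of Esr1 and Esr2 was not tested. Of 12 tested estrogen pathway genes, from a list of 14, 3 were higher and 2 lower at E14.5 than at E12.5 and 7 did not pass (median 0.20). Over all genes 25.5% were higher and 20.8% lower (median 0.03), so these counts lie near the background. Gper1, a membrane estrogen receptor gene, rose by 0.84 ± 0.13 (adjusted p = 0.00474), while the orphan receptor gene Esrrb fell by 2.19 ± 0.39 (0.00695) and the receptor corepressor gene Nrip1 fell by 1.05 ± 0.12 (0.00204). Cyp19a1, the aromatase gene that makes estrogen, was well above background on 1 E12.5 array and was not tested.

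**Figure D4:**
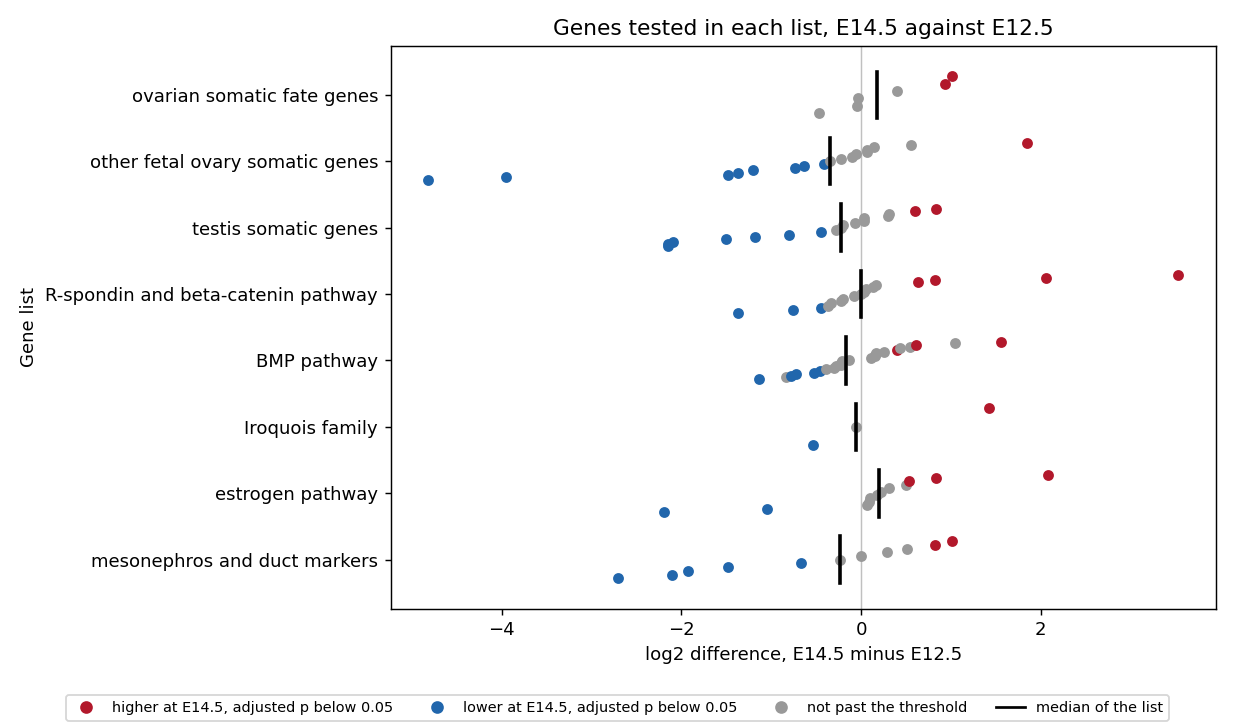
Log2 difference between E14.5 and E12.5 (x axis) of every tested gene of the ovarian somatic fate genes, 6 related gene lists and the mesonephros markers (y axis). Each point is a gene, red or blue when past the threshold and grey otherwise, and black lines are list medians, from -0.34 for other fetal ovary somatic genes to 0.20 for the estrogen pathway.

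Gonads are dissected with varying amounts of adjoining tissue, and Wnt4 is also transcribed in mesonephros, so the markers of the other cell types are given beside these values. Of 11 tested mesonephros and duct markers, from a list of 12, 2 were higher and 5 lower at E14.5 than at E12.5. For this and the marker counts that follow, 25.5% of all genes were higher and 20.8% lower. The summed signal of the 12 was 470 to 478% of the 75th percentile at E12.5, 252 to 287% at E13.5 and 207 to 267% at E14.5, with 1 marker (Ret) well above background on no array. Lhx1 fell by 2.70 ± 0.31 and Calb1 fell by 2.10 ± 0.20, while Osr1 rose by 1.02 ± 0.23 (adjusted p = 0.0146, or 0.0652 with the second E14.5 array dropped) and Pax2 by 0.82 ± 0.19 (0.0167, or 0.0788 with the second E12.5 array dropped). The 8 coelomic surface markers summed to 1354 to 1494%, 1299 to 1328% and 1180 to 1184% at the 3 stages. Between E12.5 and E14.5, 1 of these 8 passed upward and 2 downward. The 7 germ cell markers summed to 3683 to 4775%, 7246 to 7810% and 6225 to 7527%. Of these 7, 5 passed upward between E12.5 and E14.5 and 0 downward, with a median change of 1.05. The 6 fetal Leydig cell markers went from 418 to 655% at E12.5 to 5769 to 6640% at E13.5 and 11430 to 15324% at E14.5, and all 6 passed upward between E12.5 and E14.5. The 7 erythroid markers went from 11169 to 14642% at E12.5 to 4954 to 6745% at E13.5 and 1595 to 3112% at E14.5, and 4 of 6 tested passed downward between E12.5 and E14.5. The 6 macrophage markers with a probe, of 8, went from 205 to 240% to 249 to 298% and 412 to 450%, with 4 of 6 passing upward, and the 8 endothelial markers from 1907 to 1976% to 1587 to 1626% and 1488 to 1577%, with 3 of 8 passing downward. Wnt4 rose from E12.5 to E14.5 while the mesonephros, surface, erythroid, endothelial and Sertoli sums were lower and the Leydig, germ cell and macrophage sums higher. The part of any of them in the signal of Wnt4 was not tested.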

How the data were processed

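Per the file headers and the submitters' processing notes, the scanner files of the 6 arrays hold spot intensity values from Agilent Feature Extraction 9.5, background-subtracted and not scaled between arrays, and mark each spot that was an outlier, saturated or well above background. The authors' deposited table gives each probe 1 linear ratio at each stage, and its reference, scaling and centring are not stated. Its log2 differences between stages matched those of the scanner values, with a correlation of 1.0 over 12331 genes and offsets of 0.10, -0.11 and -0.02, so its direction is known, and the medians of its columns were 0.963, 1.04 and 1.01.

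Signals were log2-transformed after scaling to each array's 75th percentile, with outlier spots dropped and repeats averaged. Of 41174 probes 21 were missing on an array. RefSeq accessions named 22943 probes of 16354 genes, and the brightest probe stood for a gene with several. The 7 genes have 1 probe each, so a fit on all probes uses the same values for them. It differs from the gene fit in the number tested and in the variance prior, which was estimated again. Positions of probes were not used here. Where no array of the dimmer stage was well above background, the fold is a bound ("at least"), with that stage set to the dimmest signal that still counted as above background on its arrays. Some brighter spots were not called well above background, such as Irx5 at -6.05 on the first E14.5 array. The bound therefore holds under this setting and is not a strict lower limit.

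The 6 arrays entered a single limma fit of stage means (limma 3.58.1, R 4.3.3, lmFit and eBayes with 3 residual and 3.01 prior degrees of freedom, two-sided), after a check on simulated data. P-values measure the spread between these arrays, and their number limits the precision. The settings tried beside it were normexp with an offset of 50, scaling by quantile or by median, a stricter or no filter on dim genes, probes averaged per gene, a trended and robust prior, a minimum of 2-fold, blocks for replicate or slide, a fit of the 4 arrays compared, and each array left out.

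The 7 genes and the gene lists were chosen with earlier results of these data known. The text names the 7 genes, 12 genes fixed by name, up to 2 rises and 2 falls past the threshold from each list between E12.5 and E14.5, and the nearest profiles. Genes named to spell out a small count, other Iroquois genes and Cyp19a1 were named after their values were seen. Figures were drawn with matplotlib 3.10.9 from tables read with pandas 2.3.3 in Python 3.11.15.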

Additional observations from a re-analysis of the deposited data

How the results depend on the processing

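The rise of Wnt4 from E12.5 to E14.5 passed in all 17 alternatives. Among the 6 tested genes, the count past the threshold between E12.5 and E13.5 (2) became 1 with median scaling and with a trended and robust prior, 0 with a 2-fold minimum and 0 to 2 without 1 array, and in the fit on probes with no background filter, which tests all 7, 0 of these 6 and 1 of 7, Irx3, passed. Between E13.5 and E14.5 (0) it became 1, Wnt4, with normexp and with the trended prior. Between E12.5 and E14.5 (2) it became 1, Wnt4, among genes above background on all arrays, with the trended prior and with a 2-fold minimum, and 1 to 3 without 1 array. Some settings raised the counts against E12.5. Normexp correction brought in Esr2, upward, at both later stages, beside Wnt4 and Irx5. Median scaling brought in Foxl2, downward, for the E14.5 difference only, again beside Wnt4 and Irx5. The cause of these shifts was not tested.

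Over all genes, 7 calls between E13.5 and E14.5 became 396 with normexp, 4 with quantile (3 of them upward) and 92 with median scaling, 346 with the trended prior, 1 with unnamed probes included, and 0 with the stricter filter, no filter, the mean of probes and 4 arrays, and 0 to 42 without 1 array. The 4204 calls between E12.5 and E13.5 became 1156 with a 2-fold minimum, 7778 with unnamed probes and 1403 to 3935 without 1 array. The 6146 calls between E12.5 and E14.5 became 1901, 11402 and 3897 to 5349.

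Signs turned with normexp for Foxl2 against E12.5 (0.13 at E13.5, 0.24 at E14.5), Irx6 (0.17, 0.10), Bmp2 (0.11) and Fst (0.0384) at E14.5, and Irx5 (0.16) and Esr2 (0.0037) from E13.5 to E14.5. They turned for Foxl2 from E13.5 to E14.5 with quantile (-0.0361) and median scaling (-0.0114), for Lef1 (-0.0407, -0.11) and, with median scaling, for Amh (-0.13). Without 1 array, ranges that crossed 0 from E12.5 to E14.5 were those of Rspo1 (-0.39 to 0.30), Bmp2 (-0.31 to 0.24), Amh (-0.0829 to 0.15) and Lef1 (-0.22 to 0.33), and from E13.5 to E14.5 those of Foxl2 (-0.15 to 0.30), Rspo1 (-0.64 to 0.0445), Bmp2 (-0.43 to 0.11), Irx5 (-0.17 to 0.0433) and Esr2 (-0.24 to 0.0436). No reversed change had passed, except Irx6 from E12.5 to E14.5.

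Whether same-numbered arrays were paired is not stated. Deviations of same-numbered arrays correlated across genes at -0.04 for E12.5 and E13.5, -0.06 for E12.5 and E14.5, and 0.23 for E13.5 and E14.5. A correlation across all genes cannot decide pairing for a single gene, so none is concluded. With the replicate block, Foxl2 passed downward at E13.5 (adjusted p = 0.0387) and E14.5 (0.0393) against E12.5, so 3 of the 6 genes passed in each, and 1 gene of all passed between E13.5 and E14.5. The slide block could be fitted only for E14.5 against E13.5, where it changed nothing. Scaling flipped the sign of the median of the R-spondin and beta-catenin list from E12.5 to E14.5 (-0.04 with quantile, -0.16 with median scaling). Signal over background limits Irx3, Irx5 and Foxl2.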
